A study of Mus musculus with 24 samples.

Results

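The proteasome genes described here are the mouse genes whose symbol starts with Psma, Psmb, Psmc, Psmd, Psme, Psmf or Psmg followed by a digit. They were taken by symbol from the deposited gene table, and the 3 inducible immunoproteasome subunits Psmb8, Psmb9 and Psmb10 and the meiotic gene Psmc3ip were left out. The rule found 47 genes of 21965 in the table, and 45 of them passed the filter on low counts that left 14246 genes for testing. They comprise 8 genes of the alpha ring, 8 of the beta ring, 6 base ATPases, 3 base scaffold and ubiquitin receptor genes, 8 lid genes, 3 base assembly chaperones, 4 core assembly chaperones, 5 activators, and the pair Psme3ip1 and Psmf1, an activator partner and an inhibitor. The genes that did not pass were Psma8, an alpha ring subunit of the testis, and Psmb11, a beta ring subunit of the thymus. Psma8 had at most 10 counts in any library and Psmb11 at most 6.

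The levels come from RNA-seq of the gastrocnemius, a calf muscle, of mice, with 24 libraries in all. There were 4 libraries of a control group and 4 for each of the times 1, 3, 5, 7 and 14 days after the muscle had lost its nerve supply (denervation). The sources used here do not give the strain, age or sex of the mice, the way of denervation, or whether the control muscle had a sham operation. The labels do not tie the 4 libraries of a group to separate mice, so the p-values below reflect library-to-library spread that could be technical. One protocol field describes RNA from dorsal root ganglion neurons, although gastrocnemius is the tissue label of every library.

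The proteasome is the large protease that degrades proteins tagged with ubiquitin. Its core is a stack of alpha and beta rings that encloses the proteolytic sites of Psmb5, Psmb6 and Psmb7, and its regulatory particle consists of a base, whose ATPases unfold the substrate, and a lid, which removes the ubiquitin chain. Dedicated chaperones build the core and the base, other activators can replace the regulatory particle, and in muscle that loses its nerve the ubiquitin and proteasome pathway is a known route of protein loss.

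The stretches before the transcription start are shown for genes picked among those that hold the motif marked below. Psmb5 and Psmb6 were picked because these catalytic subunits took different courses after day 3. Psmd9 was picked because it was the tested proteasome gene with its highest mean CPM in control, under the TMM scaling described below. In TPM its mean was instead lowest in control (13.9). Sequences and starts are those of RefSeq on GRCm38.p6, which is not known to be the authors' build, and 39 of the 47 genes had an entry. Each runs 5′ to 3′ on the gene's strand, and capitals mark a match to TGACNNNGC, the core of the antioxidant response element that the factors Nfe2l1 and Nfe2l2 bind. The Psmb5 stretch is chr14:54618024-54618123 on the minus strand and its match begins 47 bases before the start. The Psmb6 stretch is chr11:70525257-70525356 on the plus strand with the match 9 bases before the start, and that of Psmd9 is chr5:123228078-123228177 on the plus strand with the match 31 bases before it.
Psmb5: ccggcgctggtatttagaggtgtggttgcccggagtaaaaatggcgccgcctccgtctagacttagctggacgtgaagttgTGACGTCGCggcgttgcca
Psmb6: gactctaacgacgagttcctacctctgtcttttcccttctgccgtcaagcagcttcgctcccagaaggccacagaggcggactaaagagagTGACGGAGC
Psmd9: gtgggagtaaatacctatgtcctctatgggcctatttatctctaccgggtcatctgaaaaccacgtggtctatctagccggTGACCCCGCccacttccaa

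Within windows from 250 bases before to 50 bases after the start, searched on both strands, TGACNNNGC was found in 6 of the 39 genes (15.4%) and in 3781 of all 27025 genes with such a window (14%). The other 3 genes with a match were Psmc6, Psmd12 and Psme4. CCAAT, the box bound by nuclear factor Y, which neither holds nor is held by the first motif, was found in 14 of the 39 (35.9%) and in 11096 of the 27025 (41.1%). The 14 were Psma1, Psma2, Psma3, Psma6, Psma7, Psmb11, Psmb3, Psmc1, Psmc2, Psmd10, Psmd14, Psmd4, Psme3 and Psme3ip1. Both shares are near those of all genes, and a match describes letters, not binding.

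Values are CPM, counts scaled to one common library size with TMM factors, unless TPM is named, which is the deposited value corrected for gene length. A gene is said to have risen or fallen where edgeR's quasi-likelihood test gave a Benjamini-Hochberg adjusted p under 0.05 over all 14246 genes, so the words are relative to the scaling. The scaling matters here. The 20 most abundant genes took 36.8% of the counts in the control group (mean, n = 4) and 17.5% to 25.2% in the denervated groups, and the TMM factors were 0.70 in control and 0.91 to 1.19 after denervation. With library totals alone and no such factor, the median of all genes lay above control by 0.61, 0.34, 0.67, 0.81 and 0.78 on the log2 scale at days 1, 3, 5, 7 and 14, against 0.033, -0.026, 0.03, 0.05 and 0.064 with TMM. On that scale no proteasome gene fell against control at any day. Differences between proteasome genes within 1 comparison do not depend on this choice.

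Library totals ran from 16082846 to 20696900 counts. The 10 muscle fibre markers summed to 240100 to 246400 CPM in the control libraries, 104500 to 105200 at day 1, 125000 to 128200 at day 3, 86050 to 87420 at day 5, 56470 to 56980 at day 7 and 49010 to 49690 at day 14. The 10 macrophage markers summed to 659 to 667 CPM in control and reached 1768 to 1804 at day 5. The 6 neutrophil markers summed to 6.42 to 10.1 CPM in control and 91.9 to 103.7 at day 3, with Ly6g at 0 in 12 libraries. The 10 sensory neuron markers summed to between 4.65 and 11.7 CPM in every library, with Scn10a at 0 in 22 libraries and Snap25 at 0 in 21. The 5 erythroid markers averaged 791 CPM in control, 2908 at day 1, 190 at day 3 and 2168 at day 14, and the 6 endothelial markers 1663 in control and 528 to 888 after denervation. The 6 fibroblast markers averaged 5364 in control, 2261 at day 3 and 8284 at day 14, and the 6 Schwann cell markers 325 in control and 67.9 at day 14. These changes run alongside all results below, and their part in them was not tested. In bulk RNA, fewer cells of a type and less RNA per cell cannot be told apart.

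All 45 tested proteasome genes differed among the 6 groups in edgeR's omnibus quasi-likelihood test, as did 96.7% of all genes. On the CPM scale the highest group mean was that of day 3 in 33 of the 45. Among them were 13 of 14 core genes, 8 of 9 base genes and all 8 lid genes, but 1 of 7 assembly factors. The exceptions among the subunits on this scale were Psma3, highest at day 1, and Psmc6, highest at day 14. This count depends on the scaling, and the share of all genes with their highest mean at day 3 was not counted. In TPM the lid genes Psmd6, Psmd7, Psmd11 and Psmd14 were highest at day 5, and Psmd3, Psmd8, Psmd12 and Psmd13 at day 3. Some core and base genes also had another highest day in TPM, such as Psmb5 at day 7 (519, against 495 at day 3). Of the 45, 27 rose at some days and fell at others. The 9 that rose at all 5 days were Psma3, Psma4, Psmb5, Psmd13, Psmd14, Psmd10, Psmg1, Psmg4 and Psme2, and the 5 that fell at 4 days were Psmd7, Psmd12, Psmd9, Psme4 and Psmf1 (none of these falls held with library totals alone). At a single day against control 34.5% to 40.2% of all genes rose and 35.3% to 36.7% fell. How many of all genes rose or fell at several days was not counted, so these counts are not set against a background.

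**Figure D1:**
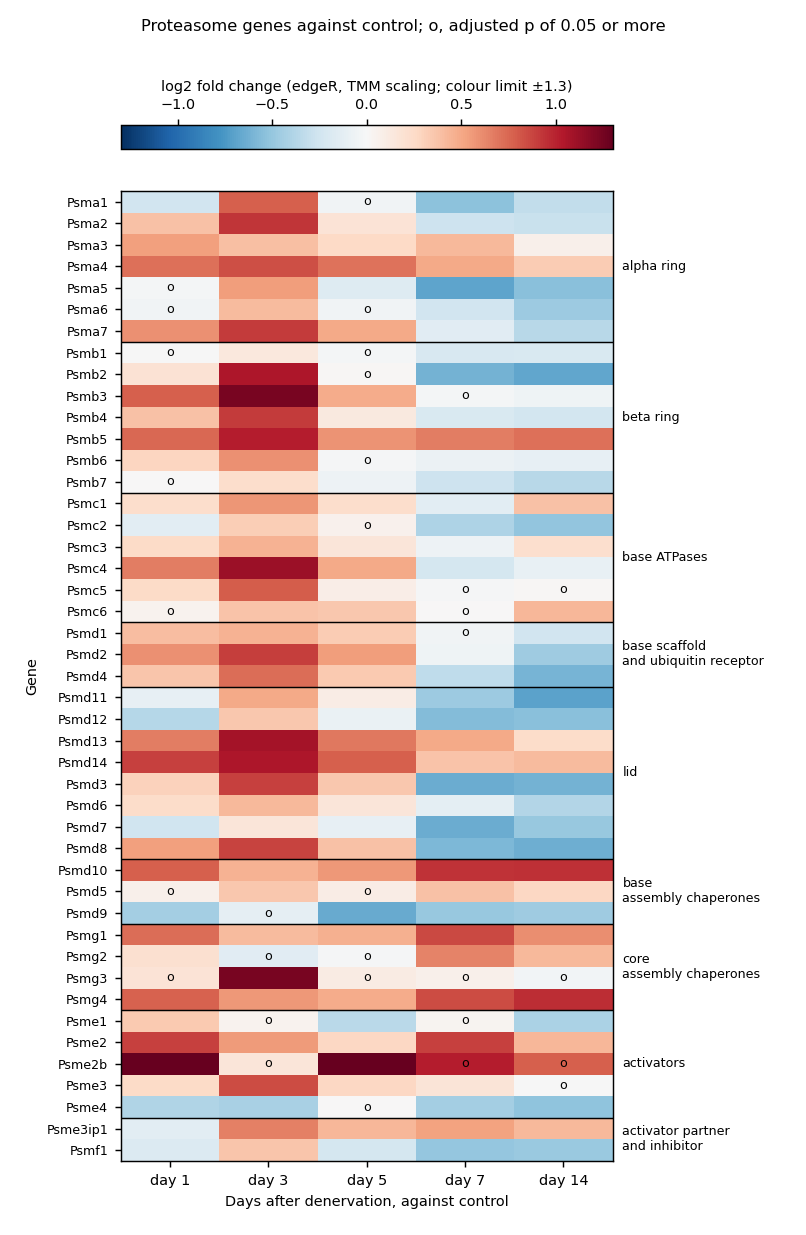
Log2 fold changes against control of the 45 tested proteasome genes (rows, by structural group) at 5 days (columns), from edgeR with TMM scaling; red is higher and blue lower, and an o marks an adjusted p of 0.05 or more. At day 3 all core, base and lid rows are red, and at days 7 and 14 most of them are blue, a blue that turns positive with library totals alone, while Psmd10, Psmg1, Psmg2 and Psmg4 are red.

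At day 1, 29 of the 45 genes rose and 9 fell, with a median log2 fold change of 0.25. Among all genes 38.1% rose and 36.2% fell, with a median of 0.033. The largest differences were those of Psme2b, a near-identical copy of the activator gene Psme2 (1.62), the lid deubiquitinase Psmd14 (0.89), Psme2 (0.89) and the base chaperone Psmd10 (0.78). The 9 that fell were Psmd9 (-0.44), Psme4 (-0.39), Psmd12 (-0.37), Psmd7 (-0.26), Psma1 (-0.25), Psmf1 (-0.17), Psme3ip1 (-0.14), Psmc2 (-0.14) and Psmd11 (-0.10). Library totals alone gave 44 rises and 0 falls, and 10050 rises and 1899 falls among the 14246 genes. Psma6 (-0.046) did not pass, but was lower past the threshold without control replicate 2 (-0.066, adjusted p = 0.0486) or day 1 replicate 3 (-0.068, adjusted p = 0.0416). The fall of Psmf1 was lost without control replicate 4 (-0.13, adjusted p = 0.0917) or day 1 replicate 3 (-0.12, adjusted p = 0.0857), that of Psme3ip1 without control replicate 1 (-0.11, adjusted p = 0.0518), and the rise of Psmg2 without day 1 replicate 1 (0.17, adjusted p = 0.0724).

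At day 3, 40 genes rose and 1 fell, with a median of 0.55. Among all genes 34.5% rose and 35.7% fell, with a median of -0.026. All 31 core, base and lid genes rose, by 0.14 for Psmb1 to 1.24 for Psmb3, a structural beta subunit. The largest differences were those of Psmg3 (1.24), which belongs to a chaperone pair of the core, Psmb3 (1.24), the base ATPase Psmc4 (1.11) and the lid subunit Psmd13 (1.08). The only gene that fell was the activator Psme4 (-0.42), whose value was -0.042 with library totals alone and did not pass there. Psmg2 (-0.15), Psmd9 (-0.12), Psme1 (0.047) and Psme2b (0.15) did not pass. On library totals 43 rose and 0 fell, and of all genes 7823 rose and 2595 fell.

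At day 5, 28 genes rose and 7 fell, with a median of 0.18. Among all genes 38.5% rose and 35.8% fell, with a median of 0.03. The largest differences belonged to Psme2b (1.84), Psmd14 (0.77), the alpha subunit Psma4 (0.71) and Psmd13 (0.68). The 7 that fell were Psmd9 (-0.66), Psme1 (-0.35), Psmf1 (-0.23), Psma5 (-0.17), Psmd7 (-0.10), Psmd12 (-0.082) and Psmb7 (-0.070), and with library totals alone 44 rose and 0 fell, beside 10291 and 1680 of all genes. The Psmd12 call was lost without control replicate 2 (-0.073, adjusted p = 0.0637), control replicate 3 (-0.064, adjusted p = 0.0983) or day 5 replicate 3 (-0.056, adjusted p = 0.131). The Psmb7 call was lost without control replicate 3 (adjusted p = 0.0592) or day 5 replicate 4 (adjusted p = 0.0582), at -0.057 in both, and the rise of Psmc5 without control replicate 1 (0.060, adjusted p = 0.107), control replicate 4 (0.075, adjusted p = 0.0513) or day 5 replicate 4 (0.056, adjusted p = 0.125). Psmc2 (0.056) did not pass, but did in DESeq2 (0.058, adjusted p = 0.0448), with no filter on low counts (0.069, adjusted p = 0.0234), and without control replicate 1 (0.073, adjusted p = 0.0222), control replicate 4 (0.064, adjusted p = 0.0496) or day 5 replicate 1 (0.075, adjusted p = 0.0158). With no filter the Psmd12 (adjusted p = 0.0598) and Psmb7 (adjusted p = 0.0566) calls were lost too.

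At day 7, 13 genes rose and 25 fell, with a median of -0.081. Among all genes 40.2% rose and 36.7% fell, with a median of 0.05. The largest differences were Psme2b (1.02, not passed), Psmd10 (0.94), Psme2 (0.89) and Psmg1 (0.86), and the smallest were Psma5 (-0.69), Psmd3 (-0.65), Psmd7 (-0.65) and Psmb2 (-0.62). Besides these 4, the genes that fell were Psma1, Psma2, Psma6, Psma7, Psmb1, Psmb4, Psmb6, Psmb7, Psmc1, Psmc2, Psmc3, Psmc4, Psmd2, Psmd4, Psmd6, Psmd8, Psmd11, Psmd12, Psmd9, Psme4 and Psmf1. Under scaling by library totals alone all 45 rose and 0 fell, beside 10600 and 1732 of all genes, and the 25 stood 0.078 to 0.71 above control. The falls of Psmb6, Psmc3 and Psmd2 were the smallest of them and each depended on single libraries. Psmb6 (-0.081) did not pass without control replicate 2 (-0.065, adjusted p = 0.0592) or day 7 replicate 3 (-0.062, adjusted p = 0.0674), Psmc3 (-0.069) without control replicate 4 (-0.039, adjusted p = 0.178) or day 7 replicate 2 (-0.060, adjusted p = 0.0540), and Psmd2 (-0.059) without day 7 replicate 1 (-0.045, adjusted p = 0.0556). Psmd1 (-0.049) did not pass, but did without control replicate 2 (-0.067, adjusted p = 0.0416) or in DESeq2 (-0.061, adjusted p = 0.0496). With no filter on low counts Psmb6 (adjusted p = 0.0670), Psmc3 (adjusted p = 0.0789) and Psmd2 (adjusted p = 0.0898) did not pass either.

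At day 14, 15 genes rose and 26 fell, with a median of -0.20. Among all genes 39.2% rose and 35.3% fell, with a median of 0.064. The largest differences were those of the core chaperone Psmg4 (0.96), Psmd10 (0.95), Psme2b (0.78, not passed) and Psmb5 (0.71), and the smallest those of the lid subunit Psmd11 (-0.70), Psmb2 (-0.67), Psmd8 (-0.63) and Psmd3 (-0.61). Besides these 4, Psma1, Psma2, Psma5, Psma6, Psma7, Psmb1, Psmb3, Psmb4, Psmb6, Psmb7, Psmc2, Psmc4, Psmd1, Psmd2, Psmd4, Psmd6, Psmd7, Psmd12, Psmd9, Psme1, Psme4 and Psmf1 fell. Scaled by library totals alone 43 rose and 0 fell, beside 10604 and 1670 of all genes, and the 26 stood 0.021 to 0.66 above control. The fall of Psmb3 (-0.060) was lost without any one of control replicates 1, 3 and 4 and day 14 replicates 1, 2 and 4, at -0.048 to -0.060, with the highest adjusted p, 0.127, without control replicate 3, and the rise of Psma3 (0.071) was lost without day 14 replicate 3 (0.055, adjusted p = 0.0632).

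Summed over the genes, the deposited TPM of the core was 2930 ± 25 in control, 5714 ± 38 at day 1, 6527 ± 40 at day 3, 5675 ± 58 at day 5, 4979 ± 18 at day 7 and 4484 ± 54 at day 14 (mean ± SD, n = 4). The base and lid together held 2926 ± 21, 5533 ± 38, 6182 ± 56, 5978 ± 64, 4430 ± 44 and 4164 ± 39 TPM in the same order. On the TPM scale, in which, as with library totals alone, no factor corrects for the shift of all genes, both sums were above all control libraries at every day and highest at day 3. On the CPM scale the core sum was 2701 ± 30 in control, 3330 ± 26, 4370 ± 27 and 3040 ± 21 at days 1, 3 and 5, and 2520 ± 6.2 and 2398 ± 25 at days 7 and 14, the last pair below all control libraries. The ratio of core to base and lid TPM, which needs no scaling between libraries, was 1.00 ± 0.0097 in control, 1.03 ± 0.013 at day 1, 1.06 ± 0.0084 at day 3, 0.949 ± 0.0099 at day 5, 1.12 ± 0.0092 at day 7 and 1.08 ± 0.0053 at day 14. Day 5 was the only group in which every library had more base and lid than core transcript.

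**Figure D2:**
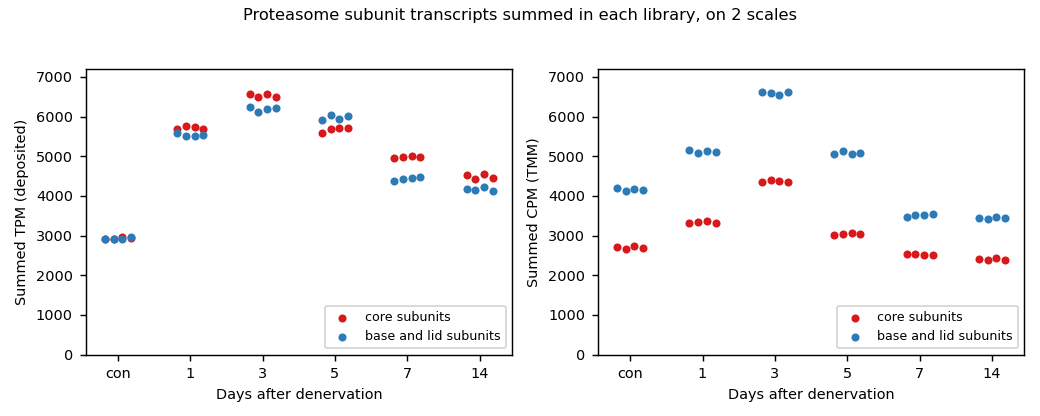
Summed proteasome subunit transcripts in each of the 24 libraries, as deposited TPM (left) and CPM after TMM scaling (right), for the core (red) and the base and lid (blue) by days after denervation; con is control. On both scales day 3 is highest, while days 7 and 14 lie above control in TPM and below control in CPM.

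The core was described by its catalytic subunits first. Psmb5, the subunit with the chymotrypsin-like site, stood at 135, 136, 134 and 142 CPM in the control libraries, 225, 222, 232 and 237 at day 1 and 278, 286, 270.5 and 274 at day 3. Psmb5 then stood at 206, 193, 212 and 207 CPM at day 5, 214, 221, 214 and 216 at day 7 and 228, 216, 228 and 224 at day 14. No denervated library overlapped the control libraries, and the log2 fold changes in edgeR were 1.02 (SE 0.03, adjusted p = 1.24e-31) at day 3 and 0.71 (SE 0.03, adjusted p = 1.27e-25) at day 14. Psmb6, with the caspase-like site, held 156, 158, 154 and 145 CPM in the control libraries, 184, 185, 188 and 184 at day 1 and 229.5, 238, 230.4 and 229 at day 3. Psmb6 later held 154, 151, 148 and 154 CPM at day 5, 145, 146, 139 and 149 at day 7 and 142, 147, 138 and 143 at day 14. Days 1 and 3 lay above all control libraries (0.60, SE 0.029, adjusted p = 3.09e-23 in edgeR at day 3), and day 5 overlapped control (-0.011, adjusted p = 0.752 in edgeR). Psmb7, with the trypsin-like site, measured 269, 285, 286 and 279 CPM in the control libraries, 289, 272, 278 and 280.1 at day 1 and 318, 331, 332 and 329 at day 3. Psmb7 further measured 266, 267, 274 and 259 CPM at day 5, 240, 233, 229.8 and 227 at day 7 and 217, 219.5, 217 and 216 at day 14. Its steps were the smallest of the 3 at day 3, with the day 1 libraries overlapping control, day 3 above them (0.23, SE 0.025, adjusted p = 6.35e-11 in edgeR) and day 14 below them (-0.36, SE 0.026, adjusted p = 2.5e-17 in edgeR, 0.35 with library totals alone).

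Within a library the order of these 3 subunits therefore changed, whatever the scaling. In deposited TPM, Psmb5 was the lowest in control at 182 ± 6.1, against 229 ± 7.8 for Psmb6 and 288 ± 9.6 for Psmb7 (mean ± SD, n = 4). At day 14 Psmb5 was the highest at 508.5 ± 13, against 364 ± 8.4 for Psmb6 and 382 ± 2.7 for Psmb7. The ratio of Psmb5 to Psmb6 went from 0.764 to 0.872 across the control libraries to 1.31 to 1.46 at day 14, and was at least 1.04 in every denervated library. The ratio of Psmb5 to Psmb7 was 0.605 to 0.657 in control, 0.933 to 1.03 at day 5 and 1.27 to 1.36 at day 14.

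The alpha ring forms the gate of the core. Its widest range of group means was that of Psma1, which held 169.9, 171, 177 and 172 CPM in the control libraries, 145, 146, 148 and 143 at day 1 and 298, 296, 294 and 292 at day 3. Psma1 subsequently held 164, 172, 169.5 and 162 CPM at day 5, 117, 117, 123 and 121 at day 7 and 147, 134, 137 and 133 at day 14. Day 3 stood apart above all other libraries (0.78, SE 0.029, adjusted p = 1.03e-27 against control in edgeR), while days 1, 7 and 14 lay below every control library on this scale, at 0.34, 0.23 and 0.39 above control with library totals alone. Psma3 had the narrowest range of the 7 tested alpha genes, with 189.5, 189.7, 190.4 and 189 CPM in the control libraries, 274, 272, 276 and 277 at day 1 and 252, 255, 245 and 242 at day 3. Psma3 had 224, 223, 227 and 234 CPM at day 5, 258, 254, 248 and 254 at day 7 and 194, 199.9, 206 and 197 at day 14. On this scale all denervated libraries of Psma3 were above control, with day 1 highest (0.54, SE 0.025, adjusted p = 9.33e-24 in edgeR) and day 14 closest to control. In TPM the mean of Psma3 was 200 in control and highest at day 7 (477, against 439 at day 1). There day 3 was closest to control (350, against 357.5 at day 14). Psma4 rose at all days, from 0.84 at day 3 to 0.33 at day 14. Psma2 and Psma7 rose at days 1, 3 and 5 (at day 3 0.93 and 0.91), and Psma5 and Psma6 rose at day 3 alone (0.55 and 0.41). Of the 7 tested alpha genes 4, 7, 4, 2 and 2 rose and 1, 0, 1, 5 and 5 fell at days 1, 3, 5, 7 and 14.

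Among the beta subunits without a catalytic site, Psmb2 had the widest range, with 153, 135, 136 and 136 CPM in the control libraries, 158, 158, 163 and 160.4 at day 1 and 282, 292, 292 and 294 at day 3. Psmb2 declined to 146, 142, 139.7 and 139 CPM at day 5, 89.6, 93.8, 91.8 and 89.5 at day 7 and 86.3, 86.8, 89.9 and 87.7 at day 14. Day 3 was above and days 7 and 14 below all control libraries, so that Psmb2 went from 1.05 at day 3 to -0.67 at day 14 in edgeR (0.045 with library totals alone, not passed). Control replicate 1 was the highest of its group, and without it the day 5 value of 0.020 became 0.067 and passed (adjusted p = 0.0483). Psmb1 had the narrowest range of all tested beta genes, with 283, 275, 297 and 279 CPM in the control libraries, 276, 290.3, 285 and 281 at day 1 and 314, 318, 311 and 303 at day 3. Psmb1 ended with 279.6, 282, 276 and 275 CPM at day 5, 241, 245, 248 and 250.4 at day 7 and 248, 237, 255 and 251 at day 14. Its day 3 rise was the smallest among the 31 subunits (0.14, SE 0.026, adjusted p = 1.06e-05 in edgeR). Psmb3 and Psmb4 rose at days 1, 3 and 5, with 1.24 and 0.91 at day 3. Of the 7 tested beta genes 5, 7, 3, 1 and 1 rose and 0, 0, 1, 5 and 6 fell at the 5 days in order.

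**Figure D3:**
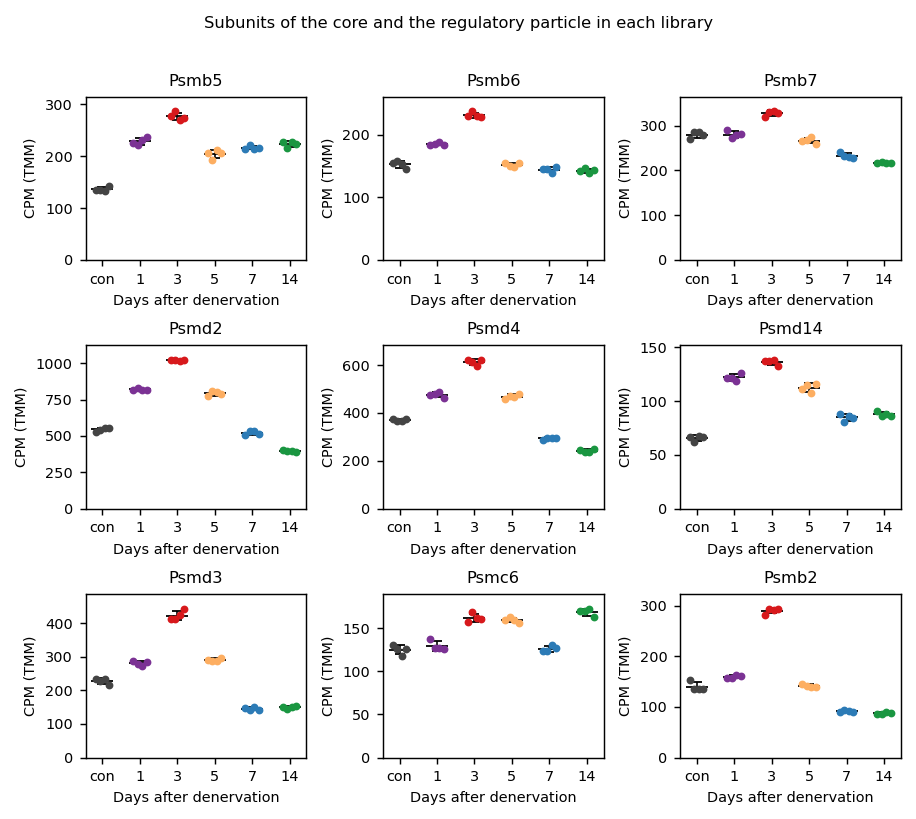
CPM after TMM scaling of 9 core, base and lid genes in each library (points), with the group mean and SD (bars, n = 4), by days after denervation; con is control and each axis starts at 0. Psmb5 and Psmd14 stay above control at all days, and all but Psmc6, which is highest at day 14, peak at day 3.

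In the base, the 6 ATPases form the ring that pulls the substrate in. Psmc4 had the widest range of them, with 156, 156, 154 and 149 CPM in the control libraries, 245, 241, 241 and 246 at day 1 and 328, 330.3, 336 and 333 at day 3. Psmc4 dropped to 213, 222, 216 and 214 CPM at day 5, 129.9, 134, 130.4 and 131 at day 7 and 147, 146, 144 and 138 at day 14. Days 1, 3 and 5 were above all control libraries and days 7 and 14 below them, with 1.11 (SE 0.025, adjusted p = 5.96e-36) at day 3 and -0.23 (SE 0.027, adjusted p = 2.14e-10) at day 7 in edgeR (0.54 with library totals alone). Psmc6 had the narrowest range and another course, with 131, 126, 118 and 126 CPM in the control libraries, 138, 127, 127 and 126 at day 1 and 157, 169, 162 and 161 at day 3. Psmc6 continued with 159, 163, 159.8 and 157 CPM at day 5, 123, 124, 131 and 127 at day 7 and 169.9, 169.8, 173 and 163 at day 14. Days 3, 5 and 14 were above all control libraries, days 1 and 7 were not, and the day 14 value was 0.43 (SE 0.033, adjusted p = 4.94e-16) in edgeR. Psmc1 and Psmc3 also rose at day 14 (0.38 and 0.21), with Psmc5 near control (0.016, not passed) and Psmc2 below it (-0.52, 0.20 with library totals alone). The 6 ATPases counted 4, 6, 5, 0 and 3 rises and 1, 0, 0, 4 and 2 falls at the 5 days.

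The scaffold and receptor genes of the base moved together. Psmd2, a scaffold that docks shuttle factors, was the most abundant proteasome gene by mean CPM in every group but day 14. There Psmc3 was higher on average, at 401, 399.6, 410.2 and 393.4 CPM. Psmd2 had 529.6, 544, 553 and 553 CPM in the control libraries, 819, 828, 818 and 819 at day 1 and 1020, 1019, 1015 and 1021 at day 3. Psmd2 went on to 775, 809.6, 799 and 788 CPM at day 5, 509.7, 536, 534 and 514 at day 7 and 402, 394, 399 and 387 at day 14. Days 1, 3 and 5 were above control without overlap, day 7 overlapped control, and day 14 was below every other library, with 0.90 (SE 0.02, adjusted p = 1.97e-36) at day 3 and -0.46 (SE 0.021, adjusted p = 9.18e-25) at day 14 in edgeR (0.25 with library totals alone). Psmd4, a ubiquitin receptor, had 373, 368, 366 and 373 CPM in the control libraries, 474, 479.9, 486 and 464 at day 1 and 620.3, 611, 597 and 620.1 at day 3. Psmd4 then had 457, 473, 467 and 477 CPM at day 5, 287, 297, 295 and 296 at day 7 and 245, 237, 239 and 250.2 at day 14. Its values separated the groups in the same order except that day 7 was also below control (-0.33, SE 0.023, adjusted p = 8.36e-18 in edgeR, 0.43 with library totals alone). The second scaffold, Psmd1, had 217, 199, 205 and 206 CPM in the control libraries, 273, 267, 283 and 268 at day 1 and 298, 282, 269.9 and 284 at day 3. Psmd1 had 258, 266, 254 and 262 CPM at day 5, 197, 203, 198 and 201 at day 7 and 174, 174, 175 and 172 at day 14. All 3 rose at days 1, 3 and 5, none rose at days 7 and 14, and 2 and 3 fell at these days.

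In the lid, Psmd14 carries the metalloprotease that releases ubiquitin chains, and its libraries read 66.9, 62.4, 67.6 and 66.6 CPM in the control libraries, 121, 122, 119 and 126 at day 1 and 137, 137, 138 and 133 at day 3. Psmd14 next read 111, 116, 108 and 116 CPM at day 5, 88.4, 80.9, 86.5 and 84.4 at day 7 and 91.1, 86.1, 88 and 86.2 at day 14. All denervated libraries were above all control libraries, with 1.05 (SE 0.036, adjusted p = 7.61e-29) at day 3 and 0.41 (SE 0.037, adjusted p = 8.29e-14) at day 14 in edgeR. Psmd3 had the widest range of the lid, at 234, 227, 234 and 216 CPM in the control libraries, 287, 279.8, 272 and 284 at day 1 and 413, 412, 424 and 442 at day 3. Psmd3 reached 291, 287, 288 and 297 CPM at day 5, 148, 142, 151 and 142 at day 7 and 149.9, 143, 151 and 153 at day 14. Day 3 was the highest group and days 7 and 14 were below all control libraries (-0.65, SE 0.03, adjusted p = 4.34e-24 at day 7 in edgeR, 0.12 with library totals alone). Psmd6 had the narrowest range, at 218, 204, 219.7 and 207 CPM in the control libraries, 255, 238, 253 and 253 at day 1 and 284, 290.5, 278 and 280 at day 3. Psmd6 was at 236, 237, 239 and 236 CPM at day 5, 194, 201, 188 and 195 at day 7 and 159, 159, 168 and 166 at day 14. Days 1, 3 and 5 were again above and days 7 and 14 below all control libraries, with smaller steps (0.42 at day 3 and -0.38 at day 14, the last 0.34 with library totals alone).

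The other lid genes split. Psmd13 rose at every day, from 1.08 at day 3 to 0.24 at day 14, and Psmd8, the subunit with the highest TPM of all proteasome genes in control, rose at days 1, 3 and 5 (0.88 at day 3) and fell at days 7 and 14 (-0.59 and -0.63, 0.18 and 0.083 with library totals alone). Psmd7 and Psmd12 rose at day 3 alone (0.16 and 0.35), and Psmd11 at days 3 and 5 (0.49 and 0.10). The ratio of Psmd14 to Psmd8 in TPM, free of scaling, was 0.127 to 0.136 in control, 0.241 to 0.267 at day 7 and 0.264 to 0.284 at day 14. The lid had a median of -0.52 at both days 7 and 14, the lowest of the structural classes, against -0.20 and -0.26 for the core and -0.069 and -0.096 for the base. With library totals alone these medians were 0.25 and 0.20, 0.57 and 0.46, and 0.70 and 0.62, in the same order of classes. Of the 8 lid genes 5, 8, 6, 2 and 2 rose and 3, 0, 2, 6 and 6 fell at the 5 days.

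The assembly factors act on the rings and the base before the particle is complete. Their median was 0.20 at day 1, 0.41 at day 3, 0.10 at day 5, 0.64 at day 7 and 0.43 at day 14, and 4, 5, 3, 5 and 5 of the 7 rose. Without control replicate 2 the day 5 median was 0.22. Of all genes 38.1%, 34.5%, 38.5%, 40.2% and 39.2% rose at these days. With library totals alone the medians of the assembly factors were 0.79, 0.79, 0.75, 1.41 and 1.14, and 6, 7, 6, 7 and 7 rose. The median of the assembly factors minus that of the lid was -0.27 at day 3, 1.16 at day 7 and 0.95 at day 14, and minus that of the core -0.39, 0.84 and 0.69. Gaps between classes do not move with the scaling beyond rounding. The assembly factors were expressed at 6.70 to 21.1 TPM in control, all below the 31 subunits, the lowest of which was Psmd14 at 51.1 TPM.

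Psmd10, also known as gankyrin, a base chaperone, read 8.73, 9.09, 8.03 and 6.13 CPM in the control libraries, 13.7, 14.2, 13.3 and 13.7 at day 1 and 12, 11.1, 10.1 and 10.4 at day 3. Psmd10 also read 12.7, 10.6, 12.5 and 11.5 CPM at day 5, 15.4, 15.1, 15.7 and 15.3 at day 7 and 15.4, 14.8, 15 and 16.6 at day 14. All denervated libraries were above the control libraries, with days 7 and 14 highest (0.94, SE 0.095, adjusted p = 3e-12, and 0.95, SE 0.095, adjusted p = 3.08e-12 in edgeR). Psmd5, another base chaperone and the one with the narrowest range, had 39.6, 38.5, 33.3 and 36.3 CPM in the control libraries, 38.1, 38.4, 38.9 and 39.4 at day 1 and 45.4, 50, 47.6 and 45.6 at day 3. Psmd5 had 38.3, 42.1, 36.8 and 40.3 CPM at day 5, 47.8, 49.1, 46.8 and 48.3 at day 7 and 49.4, 43.6, 43.4 and 42.3 at day 14. Days 3, 7 and 14 rose (0.35, 0.38 and 0.27), while days 1 and 5 overlapped control. Psmd9, the third base chaperone, went the other way. Its mean was 28.6 ± 1.2 CPM in control, 21.1 ± 0.73 at day 1, 26.4 ± 1.5 at day 3, 18.2 ± 1.9 at day 5, 20.3 ± 0.94 at day 7 and 20.8 ± 1.6 at day 14 (mean ± SD, n = 4). It fell at days 1, 5, 7 and 14, by 0.66 on the log2 scale at day 5, and with library totals alone its values were 0.14 at day 1, -0.010 at day 5, 0.27 at day 7 and 0.26 at day 14.

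Of the core chaperones, Psmg1 and Psmg2 form one pair and Psmg3 and Psmg4 another. Psmg3 had the widest range, at 6.93, 8.34, 5.14 and 6.55 CPM in the control libraries, 7.02, 6.26, 8.67 and 8.57 at day 1 and 16.3, 14.7, 16.6 and 16 at day 3. Psmg3 returned to 6.26, 7.27, 7.22 and 8.12 CPM at day 5, 6.79, 6.55, 7.9 and 6.88 at day 7 and 7.21, 6.08, 6.32 and 6.76 at day 14. On this scale the day 3 libraries stood apart from all other 20 libraries, with 1.24 (SE 0.12, adjusted p = 8.2e-13) in edgeR, and no other day passed against control. With library totals alone all 7 assembly factors, Psmg3 among them, rose at days 3, 7 and 14. In TPM the mean of Psmg3 was 9.19 in control and 16.2, 29.1, 16.8, 17.6 and 15.5 at days 1, 3, 5, 7 and 14. Without control replicate 2 the day 1 value of 0.18 became 0.30 and passed (adjusted p = 0.0439). Psmg2 had the narrowest range, at 18.4, 19.3, 18.6 and 18.9 CPM in the control libraries, 23.3, 19.7, 21.9 and 21.5 at day 1 and 17.9, 18.3, 14.6 and 16.7 at day 3. Psmg2 later had 17.3, 19.4, 17.3 and 20.3 CPM at day 5, 29.2, 27.8, 29.4 and 31.1 at day 7 and 24.8, 27.9, 25.3 and 22.8 at day 14. Days 7 and 14 were above all control libraries (0.64, SE 0.076, adjusted p = 2.29e-10 at day 7 in edgeR), and day 3 was the group with the lowest mean CPM. In TPM the mean of Psmg2 was instead lowest in control, at 21.1 against 25.4 at day 3. Psmg1 and Psmg4 rose at all 5 days, with 0.86 and 0.85 at day 7. Psmg3 and Psmg4, the members of the second pair, thus had their highest means at days 3 and 14.

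**Figure D4:**
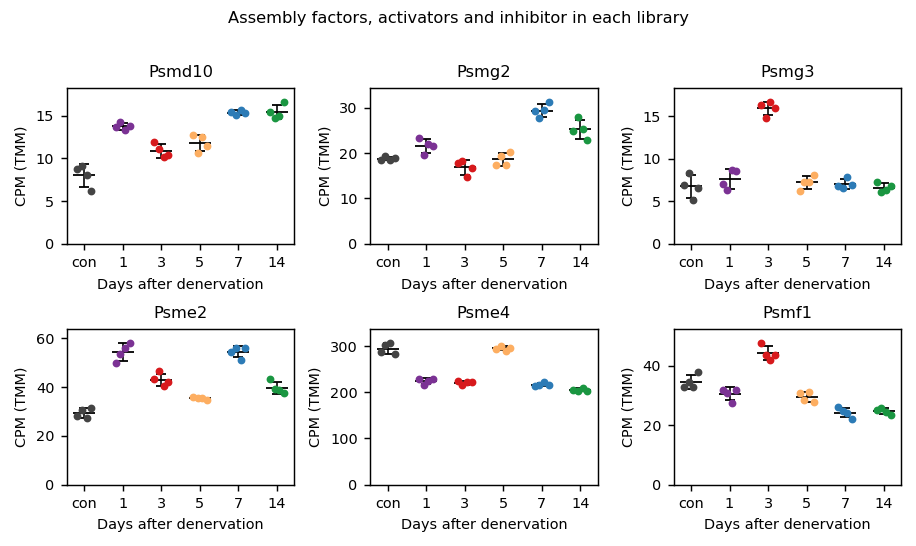
CPM after TMM scaling of 3 assembly factors, 2 activators and the inhibitor Psmf1 in each library (points), with the group mean and SD (bars, n = 4), by days after denervation; con is control and each axis starts at 0. Psmg3 is high at day 3 alone, Psmd10 and Psmg2 are highest at days 7 and 14, and Psme4 is near its control level at day 5 alone.

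The activators bind the ends of the core in place of the regulatory particle. Psme1 and Psme2 make up one activator, Psme3 forms a nuclear one and Psme4 is a large single-chain one. Psme4 read 287, 302, 306 and 284 CPM in the control libraries, 228, 216, 224 and 228 at day 1 and 224, 215, 222 and 222 at day 3. Psme4 changed to 294, 301, 290.3 and 296 CPM at day 5, 213, 216, 222 and 215 at day 7 and 206, 204, 209.6 and 203 at day 14. Days 1, 3, 7 and 14 lay below all control libraries, with log2 fold changes of -0.39 (SE 0.026, adjusted p = 2.7e-18), -0.42 (SE 0.026, adjusted p = 6.5e-19), -0.45 (SE 0.026, adjusted p = 2.9e-20) and -0.52 (SE 0.026, adjusted p = 1.04e-22) in edgeR, and day 5 among them (0.003, adjusted p = 0.922 in edgeR). With library totals alone the same values were 0.19, -0.042, 0.32 and 0.20. Relative to Psme3 in TPM, free of scaling, Psme4 stood at 1.51 ± 0.13 in control, 0.884 ± 0.061 at day 1, 0.606 ± 0.037 at day 3, 1.12 ± 0.060 at day 5, 0.924 ± 0.048 at day 7 and 1.05 ± 0.033 at day 14 (mean ± SD, n = 4), so that every denervated library was below every control library.

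Psme2 read 28.2, 30.8, 27.4 and 31.3 CPM in the control libraries, 49.8, 53.6, 56.1 and 58 at day 1 and 43.1, 46.5, 40.6 and 42 at day 3. Psme2 read 36, 35.6, 35.3 and 34.8 CPM at day 5, 54.5, 56.1, 51.2 and 56.1 at day 7 and 43.1, 39.1, 38.6 and 37.7 at day 14. All denervated libraries were above control, most at days 1 and 7 (0.89, SE 0.057, adjusted p = 1.06e-18, and 0.89, SE 0.057, adjusted p = 6.69e-19 in edgeR). Its partner Psme1 rose at day 1 (0.34) and fell at days 5 and 14 (-0.35 and -0.41, 0.30 and 0.31 with library totals alone). The ratio of Psme2 to Psme1 in TPM was 0.646 to 0.709 in control and 0.856 to 1.39 in the denervated libraries. Psme3 rose at days 1, 3, 5 and 7, with 0.85 at day 3. Psme2b had 1 to 5 counts a library in control, 16 to 21 at day 1, 3 to 8 at day 3, 10 to 26 at day 5, 6 to 16 at day 7 and 7 to 16 at day 14, and since its sequence nearly repeats that of Psme2, counting could move reads between them. It rose at days 1 and 5 (1.62, SE 0.46, adjusted p = 0.00158, and 1.84, SE 0.45, adjusted p = 0.000336 in edgeR). At day 7 (1.02) it did not pass with TMM scaling and all libraries, and passed without control replicate 1 (1.20, adjusted p = 0.0479), day 5 replicate 3 (1.02, adjusted p = 0.0460) or day 7 replicate 4 (1.24, adjusted p = 0.0205).

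The 10 lymphocyte markers were also high at days 1 and 5, with sums of 333 to 343 and 465 to 485 CPM, against 27.6 to 34.1 in control, 18.5 to 21 at day 3, 55.1 to 56.5 at day 7 and 39.4 to 42.1 at day 14, and Cd3d was at 0 in 8 libraries. Their part in the values of Psme2b and of the immunoproteasome genes below was not tested.

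Psmf1 encodes an inhibitor of the core and Psme3ip1 a partner of Psme3. Psmf1 read 33, 34.5, 32.8 and 37.8 CPM in the control libraries, 32, 31, 27.6 and 31.9 at day 1 and 47.7, 43.7, 42.1 and 43.8 at day 3. Psmf1 decreased to 30.8, 28.5, 31.1 and 27.9 CPM at day 5, 26.1, 24.9, 24.1 and 22.1 at day 7 and 25.2, 25.8, 24.4 and 23.4 at day 14. Only day 3 was above all control libraries (0.36, SE 0.061, adjusted p = 1.36e-06 in edgeR), and the value at day 7 was -0.51 (SE 0.064, adjusted p = 1.54e-09) in edgeR (0.26 with library totals alone). Psme3ip1 read 43.4, 41, 40.1 and 39.2 CPM in the control libraries, 36.3, 36.5, 37.7 and 37.8 at day 1 and 66, 66.2, 63.1 and 62.3 at day 3. Psme3ip1 kept 51.5, 55.9, 57.4 and 56.1 CPM at day 5, 59.8, 57, 60.4 and 57.9 at day 7 and 52.2, 57.2, 54.8 and 55.2 at day 14. Day 1 lay below all control libraries and all later days above them, with 0.66 (SE 0.046, adjusted p = 3.28e-17) at day 3 in edgeR.

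Between neighbouring times, day 3 against day 1 showed 35 rises and 7 falls with a median of 0.32, where 36.1% of all genes rose and 38% fell with a median of -0.042. Of the 31 subunits 29 rose, most in Psma1 (1.02), and Psma3 alone fell (-0.14). Psmd1 did not pass with all libraries (0.057) and passed when any one of 13 libraries was left out, at most 0.081 without day 3 replicate 3 (adjusted p = 0.00852). With library totals alone 27 rose and 12 fell, beside 3530 and 7260 of all genes, and Psma4, Psmb1, Psmc3, Psmd6 and Psmd14 turned negative. The fall of Psme2b from day 1 to day 3 was -1.47.

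Day 5 against day 3 showed 2 rises and 38 falls with a median of -0.39, where 38.2% of all genes rose and 39.2% fell with a median of -0.008. Of the 31 subunits 30 fell, most in Psmb2 (-1.03), and Psmc6 did not pass (-0.023). The 2 that rose were Psme4 (0.42) and Psme2b (1.69), and the largest fall of all was that of Psmg3 (-1.14). Library totals alone left 10 rises and 24 falls, beside 7353 and 3622 of all genes, and Psma3, Psma4, Psmb1, Psmc2, Psmd1, Psmd5, Psmd6, Psmd7 and Psme3ip1 turned positive.

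Day 7 against day 5 showed 11 rises and 33 falls with a median of -0.28, where 33.8% of all genes rose and 34.4% fell with a median of 0.007. All 8 lid genes and all 9 base genes fell, most in Psmd3 (-0.997) and Psmd8 (-0.97). Of the 7 assembly factors 6 rose, most in Psmg2 (0.66) and Psmg1 (0.40), and Psmg3 did not pass (-0.041). With library totals alone 11 rose and 29 fell, beside 6140 and 3790 of all genes, and Psmb6, Psmc5 and Psme3 turned positive. The rises of Psme3ip1 (0.090) and Psmd9 (0.16) and the falls of Psmb6 (-0.071) and Psme2b (-0.82) each lost their call without one of several libraries, among them day 5 replicate 1, without which the values were 0.059, 0.13, -0.063 and -0.70 (adjusted p = 0.226, 0.123, 0.0673 and 0.116). The Psme3ip1 call was also lost without day 1 replicate 1 or 2, day 5 replicate 2 or 4, or day 7 replicate 1 or 3, and that of Psmd9 without day 5 replicate 2 or day 7 replicate 1, 2 or 3. Psmb6 also lost it without day 5 replicate 4 or day 7 replicate 3, and Psme2b without day 5 replicate 2 or 4 or day 7 replicate 3 or 4. That of Psmb5 (0.083) was lost without day 5 replicate 2 (0.056, adjusted p = 0.0790).

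Day 14 against day 7 showed 7 rises and 19 falls with a median of -0.056, where 26% of all genes rose and 25.6% fell with a median of 0.013. The 7 that rose were Psmc1 (0.52), Psmc6 (0.42), Psmc3 (0.28), Psma1 (0.21), Psmd7 (0.15), Psma5 (0.14) and Psmc4 (0.13), 4 of them base ATPases, and the largest falls were those of Psme2 (-0.46), Psme1 (-0.44) and Psmd2 (-0.40). The split on library totals alone was 7 to 26, beside 2996 to 4338 of all genes. The falls of Psme3ip1 (-0.099), Psme4 (-0.076) and Psmg1 (-0.26) were lost without day 14 replicate 1 (-0.076, adjusted p = 0.147), day 7 replicate 3 (-0.064, adjusted p = 0.0520) and day 14 replicate 1 (-0.23, adjusted p = 0.0502), while Psmd5 and Psmd8, which did not pass, did so without single libraries, at -0.16 (adjusted p = 0.0103) without day 14 replicate 1 and -0.049 (adjusted p = 0.0467) without control replicate 1 or -0.049 (adjusted p = 0.0499) without day 5 replicate 1, and Psmd8 also when only these 2 groups were fitted (-0.049, adjusted p = 0.0488). Psme3ip1 also lost its call without day 7 replicate 1 or 3 or day 14 replicate 3 or 4.

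**Figure D5:**
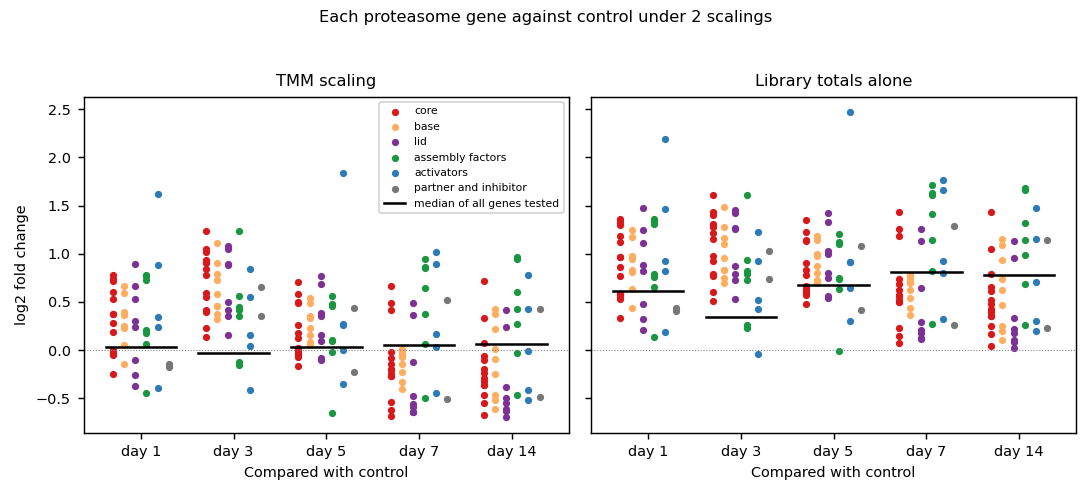
Log2 fold changes against control of the 45 tested proteasome genes (points, coloured by role) at each day, in edgeR with TMM scaling (left) and with library totals alone (right); the black line is the median of all 14246 genes. The order of the genes within a day is the same in both panels, while the whole cloud with its median moves up in the right one, by which the falls of days 7 and 14 turn positive.

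Related genes were followed in 3 lists beside the immunoproteasome subunits. Psmb8, Psmb9 and Psmb10 replace Psmb5, Psmb6 and Psmb7 in the immunoproteasome. Psmb8 rose by 1.44 at day 1, 0.80 at day 3, 0.76 at day 5 and 0.48 at day 7 and fell by 0.22 at day 14 (0.50 above control with library totals alone). Psmb9 rose by 1.35, 0.34 and 0.36 at days 1, 3 and 5, and Psmb10 by 1.01, 0.88, 0.41 and 0.57 at days 1, 3, 5 and 7. In TPM the ratio of Psmb8 to Psmb5 was 0.116 ± 0.017 in control, 0.188 ± 0.0074 at day 1 and 0.0603 ± 0.010 at day 14 (mean ± SD, n = 4), and the day 14 libraries lay below all control libraries. That of Psmb10 to Psmb7 went the other way, from 0.0350 ± 0.0043 in control to 0.0705 ± 0.0041 at day 1 and 0.0481 ± 0.0026 at day 14, with every day 14 library above control. That of Psmb9 to Psmb6 was 0.0233 ± 0.0030 in control, 0.0468 ± 0.0036 at day 1 and 0.0208 ± 0.0042 at day 14, and control and day 14 overlapped.

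Of 11 tested other parts and partners, 6, 8, 6, 5 and 4 rose and 4, 2, 3, 5 and 6 fell at days 1, 3, 5, 7 and 14 (with library totals alone 9, 10, 9, 8 and 8 rose and 2, 1, 1, 3 and 3 fell). Their median was 0.22 at day 3 and -0.14 at day 14 (0.595 and 0.576 with library totals alone). Of all genes 38.1%, 34.5%, 38.5%, 40.2% and 39.2% rose at the 5 days in order, and 35.3% to 36.7% fell. With library totals alone 7823 to 10604 of the 14246 genes rose and 1670 to 2595 fell, so several of these counts were near the shares of all genes. Zfand5, a ubiquitin-binding activator of the proteasome, was at 865 ± 7.8 CPM in control and 172.5 ± 3.3 at day 14 (mean ± SD, n = 4), a change of -2.33 (-1.61 with library totals alone). Akirin2, which brings proteasomes into the nucleus, changed by -1.21 at day 7 (-0.45 with library totals alone), and Ecpas, a proteasome adaptor, by -0.96 at day 7 (-0.20 with library totals alone). Usp14, a deubiquitinase of the base, rose most at day 3, by 0.71.

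Of 17 tested transcription factors and processing genes, 3, 13, 4, 3 and 2 rose and 13, 3, 10, 14 and 13 fell at the 5 days (with library totals alone 10, 14, 14, 11 and 11 rose and 4, 2, 2, 6 and 6 fell). The median of these was 0.32 at day 3 and -0.35 at day 14 (0.692 and 0.363 with library totals alone). At a single day 34.5% to 40.2% of all genes rose and 35.3% to 36.7% fell. With library totals alone 7823 to 10604 of the 14246 rose and 1670 to 2595 fell. Ddi2, the protease that activates Nfe2l1, went from 311 ± 7.8 CPM in control to 73.2 ± 3.4 at day 14 (mean ± SD, n = 4), a change of -2.09 (-1.37 with library totals alone). The small Maf genes, whose products pair with Nfe2l1 and Nfe2l2, were lowest at day 14 or day 7, with Maff at -1.94 and Mafk at -1.79 at day 14 and Mafg at -1.60 at day 7, or -1.22, -1.07 and -0.84 with library totals alone. At day 3 Mafg was at 0.64 and Mafk at 0.075 (not passed), while Maff was at -0.70.

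Of 11 ubiquitin genes, activating enzymes and shuttle factors, 3, 7, 4, 4 and 2 rose and 7, 3, 5, 7 and 7 fell (with library totals alone 8, 10, 8, 8 and 8 rose and 3, 1, 2, 2 and 2 fell). Here the median was 0.20 at day 3 and -0.42 at day 14 (0.573 and 0.298 with library totals alone). The shares of all genes were again 34.5% to 40.2% risen and 35.3% to 36.7% fallen at a single day. With library totals alone 7823 to 10604 of the 14246 rose and 1670 to 2595 fell. Ubb, a gene that encodes ubiquitin, was at -1.57 at day 1, 0.13 at day 3 and -1.17 at day 14 (-0.98, 0.50 and -0.46 with library totals alone). Uba6, a ubiquitin-activating enzyme, rose by 1.34 at day 14, and the shuttle factor Ubqln1 by 0.96 at day 3.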

How the data were processed

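RNA of 24 mouse gastrocnemius libraries was analysed from 1 gene table. Per the file headers, the authors deposited an expected count and a TPM for each gene and library; the sources used here do not name the aligner, quantifier, genome build or strand setting. Expected counts (7.01% not whole) were rounded. Genes passing filterByExpr were scaled by TMM and tested with edgeR 4.0.16 (glmQLFit, glmQLFTest, 6 groups in 1 fit, no covariates) in R 4.3.3 with limma 3.58.1, with Benjamini-Hochberg adjustment over all 14246 genes. TPM served only for levels and ratios between genes. The members and lists were chosen with earlier results of these data known. Values in every library are given for 23 genes, namely Psmb5, Psmb6, Psmb7, Psmd4, Psmd14, Psme4, Psmf1 and the genes with the widest and narrowest range of group mean log2 CPM in each structural group; each day names the 4 largest and 4 smallest differences and every gene that fell, and each list of related genes the 4 with the largest difference (1 of these genes is not reported here). Psme2 and Psme2b are near-identical copies, so their split is uncertain. Alternatives were DESeq2 1.42.0, its size factors, library totals alone, other filters, a replicate block, pairwise fits and leaving out each library. Scripts were tested on simulated data. Depth was 16082846 to 20696900 counts a library.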

Additional observations from a re-analysis of the deposited data

Results flagged for a closer look

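In the 138 groups of 4 libraries examined (23 genes in 6 groups), 7 held a library far from the other 3, and chance picks out about 1 in 20 such groups. For Psmb2 control replicate 1 was high at 153 CPM against 135 to 135.6 in the others, and day 3 replicate 1 was low at 281.9 against 291.9 to 293.5. Psmb6 was high in day 3 replicate 2 at 237.6 CPM, and Psmb7 in day 14 replicate 2 at 219.5 CPM. Among day 1 libraries, Psmc6 was high in replicate 1 at 138.2 CPM, Psmd2 was high in replicate 2 at 828.2 CPM and Psmd6 was low in replicate 2 at 237.9 CPM. No library stood apart for more than 2 of these genes.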

How the results depend on the processing

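Calls of the TMM fit turned sign only with library totals alone in place of TMM factors, the scaling that moves the median of all genes. Genes that did not pass with TMM are left out here. The genes that turned are listed below with their log2 fold changes under library totals alone. At day 1 against control they were Psmd11 0.48, Psmd12 0.21, Psmc2 0.44, Psmd9 0.14, Psma1 0.34, Psme3ip1 0.44, Psmf1 0.41, Psmd7 0.32 and Psme4 0.19. For day 5 against control they were Psmd12 0.56, Psme1 0.30, Psmb7 0.57, Psmf1 0.42, Psmd7 0.54 and Psma5 0.48. On day 7 against control they were Psmc3 0.70, Psmd4 0.43, Psmb4 0.57, Psmd2 0.71, Psmb1 0.56, Psma2 0.50, Psmd3 0.12, Psmd11 0.29, Psmb6 0.69, Psmd12 0.20, Psma6 0.52, Psmc1 0.62, Psmd6 0.64, Psmb7 0.50, Psma7 0.62, Psmb2 0.15, Psmc2 0.36, Psmd9 0.27, Psmd8 0.18, Psmc4 0.54, Psma1 0.23, Psmf1 0.26, Psmd7 0.12, Psme4 0.32 and Psma5 0.078. By day 14 against control they were Psmd4 0.11, Psmb4 0.48, Psmd2 0.25, Psmb1 0.52, Psma2 0.43, Psmd3 0.11, Psmd11 0.021, Psmb6 0.61, Psmd12 0.17, Psma6 0.25, Psmd6 0.34, Psme1 0.31, Psmd1 0.47, Psmb7 0.35, Psma7 0.35, Psmb2 0.045, Psmc2 0.20, Psmd9 0.26, Psmd8 0.083, Psmc4 0.62, Psma1 0.39, Psmf1 0.23, Psmd7 0.22, Psme4 0.20, Psma5 0.17 and Psmb3 0.66. From day 1 to day 3 they were Psmc3 -0.005, Psmb1 -0.066, Psmd6 -0.025, Psmd14 -0.046 and Psma4 -0.089. From day 3 to day 5 they were Psmb1 0.10, Psmd6 0.010, Psmd1 0.14, Psmd5 0.008, Psmc2 0.004, Psme3ip1 0.047, Psma4 0.14, Psmd7 0.007 and Psma3 0.14. From day 5 to day 7 they were Psmb6 0.050, Psmc5 0.017 and Psme3 0.018. Among medians larger than their spread between libraries, those that turned were as follows. They were those of all tested genes of the set at day 7 (0.69) and day 14 (0.52), the base at day 7 (0.70), day 14 (0.62) and from day 7 to day 14 (-0.013), the core at day 7 (0.57) and day 14 (0.46), the lid at day 7 (0.25) and day 14 (0.20), and the activators from day 5 to day 7 (0.018). Smaller medians that also changed sign under library totals alone were those of the activators at day 14 (from -0.007 to 0.71) and the assembly factors from day 3 to day 5 (from -0.08 to 0.19). Counts that moved by over 1.5 times under it were rises at day 1 (44), day 5 (44), day 7 (45), day 14 (43) and from day 3 to day 5 (10), and falls at days 1, 3, 5, 7 and 14 (0 at each), from day 1 to day 3 (12) and from day 3 to day 5 (24).

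With DESeq2 size factors in edgeR, DESeq2 itself, no filter on low counts, a minimum of 1 CPM in 4 libraries, or a fit of only the 2 groups compared, all counts stayed within 1.5 times, but single calls near the threshold changed. DESeq2 and its size factors each lost Psmd9 from day 5 to day 7 (0.15) and Psme3ip1 from day 5 to day 7 (0.075) and from day 7 to day 14 (-0.092). With no filter, Psmd12 and Psmb7 at day 5, Psmc3, Psmd2 and Psmb6 at day 7, Psmb3 at day 14, Psme2b and Psme3ip1 from day 5 to day 7 and Psme3ip1 from day 7 to day 14 lost theirs, while Psmc2 at day 5 and Psmd1 from day 1 to day 3 gained one. Pairwise fits lost Psmb3 at day 14 and Psmd9 and Psme3ip1 from day 5 to day 7, and the 1 CPM minimum lost the last. Rises with 1 library left out counted 28 to 30 (day 1 against control), 40 to 40 (day 3 against control), 27 to 29 (day 5 against control), 13 to 14 (day 7 against control), 14 to 15 (day 14 against control), 35 to 36 (day 3 against day 1), 2 to 2 (day 5 against day 3), 8 to 11 (day 7 against day 5) and 7 to 7 (day 14 against day 7). Falls with 1 library left out counted 8 to 10 (day 1 against control), 1 to 1 (day 3 against control), 5 to 7 (day 5 against control), 24 to 25 (day 7 against control), 25 to 26 (day 14 against control), 7 to 7 (day 3 against day 1), 38 to 38 (day 5 against day 3), 31 to 33 (day 7 against day 5) and 17 to 20 (day 14 against day 7). All 45 tested genes changed over the 6 groups whichever library was left out. Medians of the set or its classes moved by more than the spread between libraries in 22 of the cases with 1 library left out, most for the activators at day 3, from 0.15 to between 0.054 and 0.35, and from day 7 to day 14, from -0.24 to between -0.45 and -0.16. That of the core from day 1 to day 3 moved from 0.39 to 0.37 with DESeq2 or its size factors.

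The replicate numbers of the labels were used as a replicate block in one fit, in which 40 genes rose at day 3 and 26 fell at day 14, and no call of a proteasome gene changed. Over 60 pairs of libraries with the same number in different groups, deviations from the group means correlated at 0.0039 on average (from -0.078 to 0.079). Over 180 pairs with other numbers the average was -0.0013. No effect of the number was seen, but correlations near 0 cannot exclude a shared source with a small effect. CPM divided by gene length was not run, because no gene length was used here. Calls near the threshold rest on small differences of abundant genes, and Psme2b rests on few counts. Psma8 and Psmb11 did not pass the filter, and no test result is given for them.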
